A study of Mus musculus with 14 samples.

Results

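The elastic fibre genes of Bruch's membrane were examined in mouse retinal pigment epithelium (RPE) that had lost Clic4, a chloride intracellular channel protein. The 10 genes were chosen by name for their place in the fibre: Eln, Fbn1, Emilin1, Fbln1, Fbln2, Fbln5, Efemp1, Efemp2, Lox and Loxl1. Each symbol matched 1 of the 42687 genes counted, and all 10 genes passed the filter on low counts in every comparison. RNA came from the RPE of 14 male mice on a C57BL/6J background at 3 months of age, with both eyes of a mouse pooled into 1 library. KO mice carried Best1-Cre+/- and Clic4f/f and were compared with 1 kind of control in each of 3 sets that shared no mouse: 3 KO and 3 WT mice with neither allele, 2 KO and 2 Ctrl mice with Clic4f/f and no Cre, and 2 KO and 2 CreCtrl mice with Best1-Cre+/- and unfloxed Clic4. The Best1 promoter drives Cre in the RPE and becomes active only after birth, so the deletion was made in the RPE of young mice and other cells of the eye kept Clic4. Each control genotype was measured in its own set, so the genotype of the control and the set cannot be told apart.

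Bruch's membrane is the sheet of matrix between the RPE and the choroidal capillaries, and its middle layer is elastic. Elastic fibres are made of elastin, laid down on microfibrils of fibrillin, guided by fibulins and EMILIN-1, and crosslinked by enzymes of the lysyl oxidase family. Both RPE cells and fibroblasts can make these components. EFEMP1 is best known in the eye for a substitution that causes an inherited macular dystrophy with deposits under the RPE, and variants near LOXL1 are known from exfoliation glaucoma.

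Library totals ran from 9828293 to 32384166 counts. Levels are given as CPM (counts scaled to a library of fixed size) scaled with trimmed mean of M-values (TMM) factors over all 14 libraries, and levels of different genes are compared only as CPM per kb of exon. Clic4, the targeted gene, lay at 225 to 238 CPM in WT and 17.99 to 33.1 CPM in KO mice of that set, at 61.3 and 71.0 CPM in Ctrl and 9.65 and 33.6 CPM in their KO mice, and at 86.3 and 109 CPM in CreCtrl and 13.4 and 29.6 CPM in their KO mice. Every KO library lay below the controls of its set, as held for 11% of the 14423 genes tested in all 3 sets. Against Ctrl, Clic4 did not pass the threshold given below (log2 fold change -1.61, SE 0.58, edgeR adjusted p = 0.333). All 10 RPE markers were at 1 CPM or more in every library, but so were all 10 fibroblast markers in WT and CreCtrl. In every group the RPE markers had the highest sum of the marker lists, which differ in size, but the WT libraries stood apart. Their summed RPE markers ranged from 17074 to 24163 CPM, against 46174 to 83201 CPM in the other 11 libraries. Their 10 fibroblast markers summed to 7289 to 7570 CPM, against 1075 to 2669 CPM in the other controls and 81.4 to 617 CPM in all KO libraries. None of the fibroblast markers was at 0 throughout any group.

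Markers of other cell types also differed between KO and control mice, but not alike in all 3 sets. Against WT, 10 of 10 fibroblast, 6 of 8 smooth muscle and pericyte, 6 of 8 endothelial, 3 of 6 scleral cartilage and 7 of 8 myeloid markers were lower in KO mice, and 8 of 10 RPE markers were higher. Against CreCtrl, 10 of 10 fibroblast, 5 of 8 smooth muscle and pericyte, 6 of 8 endothelial, 2 of 6 scleral cartilage, 6 of 8 myeloid and 7 of 8 rod markers were lower, and 1 of 10 RPE markers was higher. Of 6 melanocyte and Schwann cell markers, 2 rose and 2 fell against WT and 2 fell against CreCtrl, and 1 of 8 rod markers rose against WT. Of all genes, 17.6% were lower and 14.1% higher against WT, and 12.2% and 3.46% against CreCtrl, by the threshold given below. Against Ctrl no marker and no other gene passed it. The summed endothelial markers were 263 to 483 CPM in WT and 56.0 to 133 CPM in their KO mice, and the smooth muscle and pericyte markers 2415 to 2525 and 311 to 408 CPM. The median log2 fold change of the fibroblast list was -4.23 against WT, -2.98 against Ctrl and -3.51 against CreCtrl. The endothelial median and the smooth muscle and pericyte median were also below 0 in every set. In the same order, the myeloid median was -3.63, 0.24 and -2.51, and the rod median 0.62, 0.63 and -3.13. The scleral cartilage median was -3.58, -3.17 and 0.26. In Ctrl replicate 2, Myh11, a smooth muscle myosin, stood at 209 CPM, against 3.67 CPM in Ctrl replicate 1. The part of these cell types in the results was not tested, and in such bulk RNA fewer cells of a type and less RNA per cell cannot be told apart.

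Of the 10 elastic fibre genes, Eln, Lox, Emilin1 and Fbln2 were called lower in KO mice against WT and against CreCtrl, and none of the 10 was called against Ctrl. A gene is called here at an adjusted p under 0.05 and a fold change above 1.5 in edgeR's quasi-likelihood test. Against WT, 8 of the 10 genes fell and none rose, where 17.6% of the 15428 genes tested fell and 31.7% changed either way. The median log2 fold change of the 10 genes was -2.23, and that of all genes -0.08. In 9 of the 10, every KO library lay below every WT library, which held for 25.6% of all genes.

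Against Ctrl, 0 of the 10 genes and 0 of 15287 genes were called. The median of the 10 was nevertheless -2.07, against 0.01 for all genes, and 5 of them had an unadjusted p under 0.05, as did 12.1% of all genes. Every KO library lay below both Ctrl libraries for 7 of the 10 genes, against 22.8% of all genes, and above both for Fbln5 alone, against 18.3%. DESeq2 called 5 of the 10 lower (Eln, Fbln1, Fbln2, Efemp1 and Lox) among 1168 genes. Within edgeR, 1658 genes and 6 of the 10 were called with no filter on low counts. With all 14 libraries fitted together, edgeR called 647 genes and 5 of the 10, whereas scaling by library size alone kept the 0. The 0 thus moved with the filter and the fit as well as with the switch to DESeq2.

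Against CreCtrl, 4 of the 10 genes fell and none rose, where 12.2% of 15963 genes fell and 15.6% changed either way. These 4 were Eln, Fbln2, Lox and Emilin1. The other 6 lay between -0.45 and 0.38, and the median of the 10 was -0.15, against -0.02 for all genes. KO libraries lay below both CreCtrl libraries for the same 4 genes, against 37% of all genes, and above both for Fbln5, Efemp2 and Loxl1, against 34.5%.

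With the 7 KO and 7 control libraries in a single fit that adjusted for the set, 7 of the 10 genes fell and none rose, where 16.8% of 14925 genes fell and 27.8% changed either way. Fbln5, Efemp2 and Loxl1 were not called. Eln, Fbln2, Lox and Emilin1 had every KO library below every control of its own set in all 3 sets, as did 11% of the 14423 genes tested in all of them. Scaling by library size alone moved the median of all genes to -0.32, -0.11 and -0.24 in the WT, Ctrl and CreCtrl sets and to -0.24 in the set-adjusted fit. It raised the share of calls that were lower from 55.6% to 71.7% against WT, from 77.9% to 93.9% against CreCtrl and from 60.4% to 83.6% in the set-adjusted fit. The 7 genes stayed called lower under it.

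**Figure D1:**
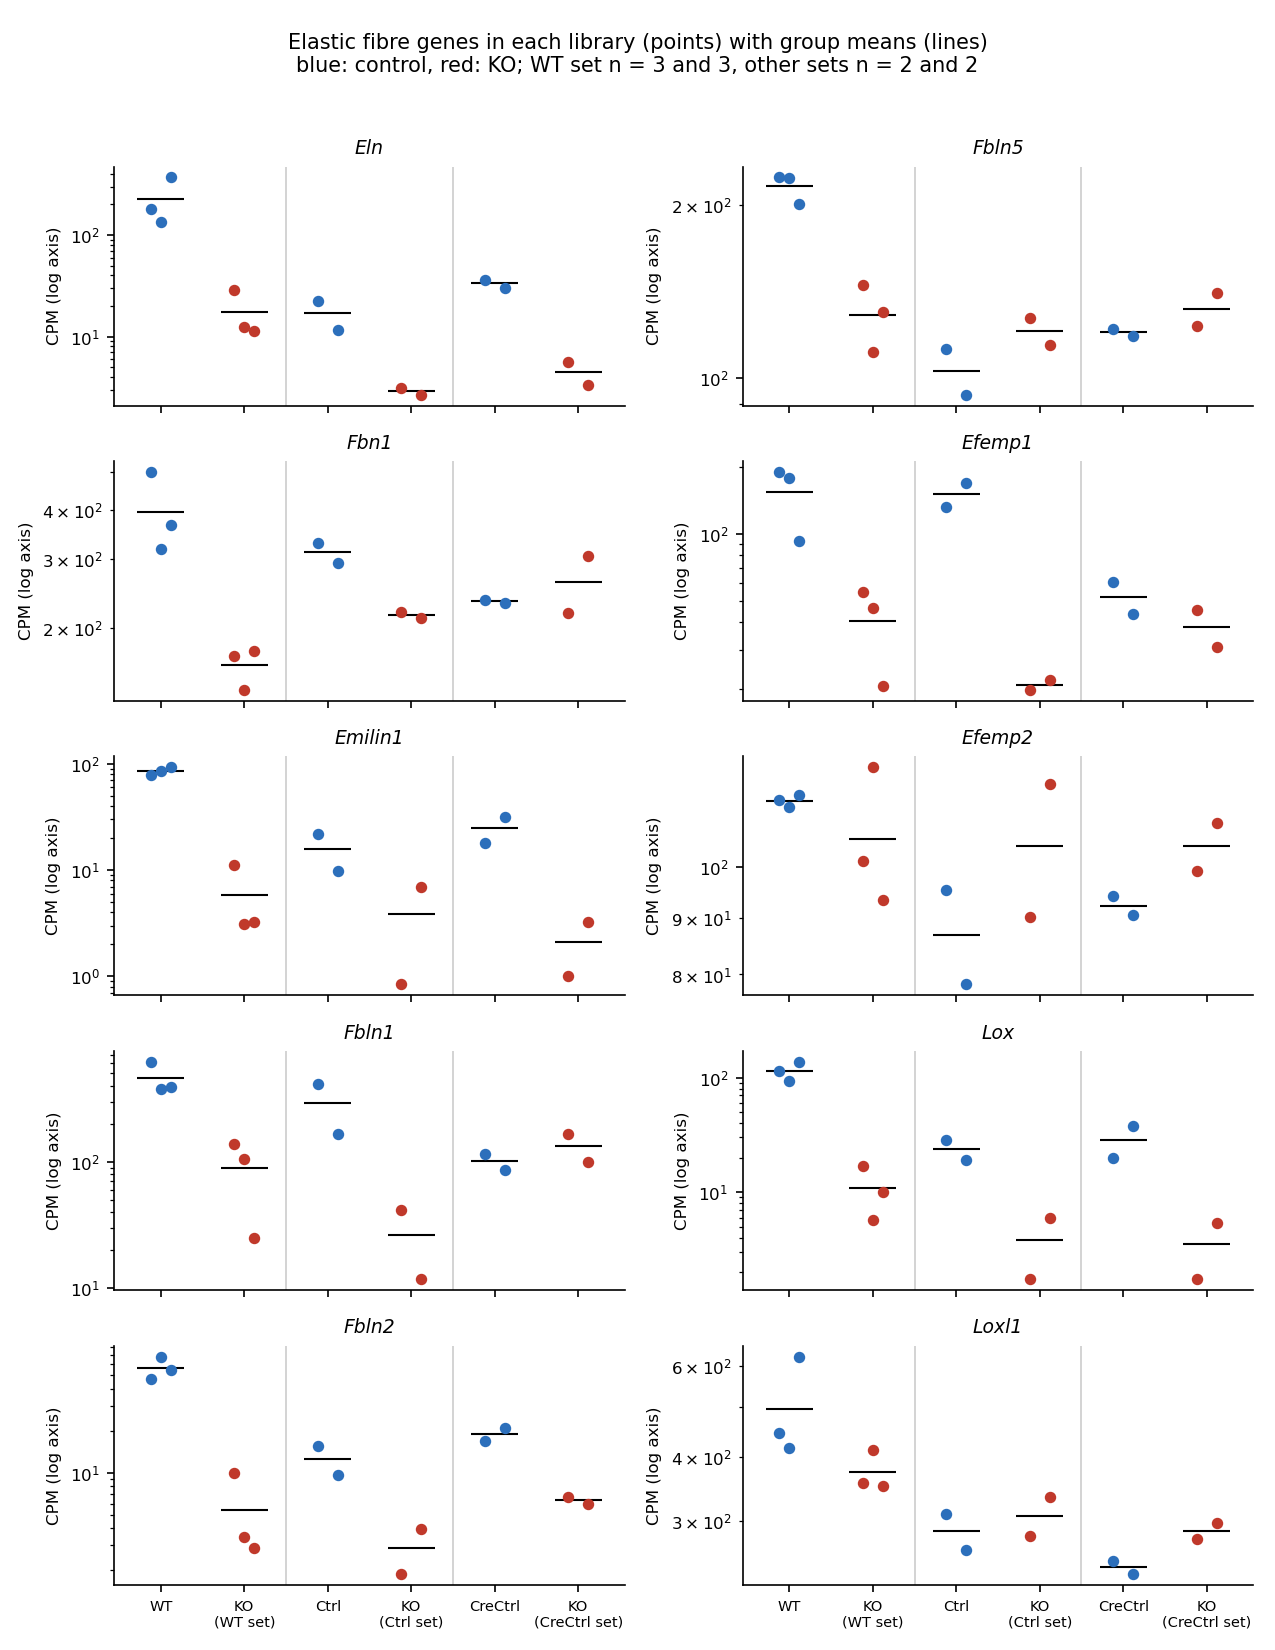
CPM on a log axis for each of the 10 genes in every library (points), with the group mean as a line, in the 6 groups of the 3 sets (blue controls, red KO). For Eln, Emilin1, Fbln2 and Lox the red points lie below the blue points of their set in all 3 sets, whereas Efemp2 overlaps in the WT and Ctrl sets.

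Eln encodes tropoelastin, the monomer of the elastic core (chromosome 5, 134702593 to 134747323, minus strand, GRCm38, 36 exon blocks). It was at 180, 135 and 369 CPM in the 3 WT mice and at 28.6, 12.5 and 11.3 CPM in their KO mice. The Ctrl mice had 22.6 and 11.6 CPM and their KO mice 3.09 and 2.66 CPM, and the CreCtrl mice had 36.4 and 30.3 CPM and their KO mice 5.57 and 3.34 CPM. No KO library reached a control of its set, but the WT mice stood far above the other controls, and the KO mice of the WT set overlapped the Ctrl mice. Eln fell 14-fold against WT (log2 fold change -3.81, SE 0.49, adjusted p = 0.000541) and 7.49-fold against CreCtrl (-2.90, SE 0.28, adjusted p = 0.00367). Against Ctrl its log2 fold change was -2.57 (SE 0.48, adjusted p = 0.116). In the set-adjusted fit it was -3.18 (SE 0.32, adjusted p = 1.93e-05), a 9.05-fold lower level.

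Fbn1 encodes fibrillin-1, the main microfibril protein of adult tissue (chromosome 2, 125300594 to 125507993, minus strand, 65 exon blocks). It was at 498, 317 and 365 CPM in WT and 169, 139 and 175 CPM in their KO mice. Ctrl mice had 329 and 293 CPM against 220 and 212 CPM in KO, and CreCtrl mice 235 and 232 CPM against 218 and 304 CPM in KO. The groups were apart in the WT and Ctrl sets and overlapped in the CreCtrl set, where KO replicate 2 was the highest of the 4. Fbn1 fell 2.60-fold against WT (log2 fold change -1.38, SE 0.19, adjusted p = 0.000684). The log2 fold change was -0.53 (SE 0.22, adjusted p = 0.438) against Ctrl, 0.18 (SE 0.21, adjusted p = 0.575) against CreCtrl and -0.66 (SE 0.21, adjusted p = 0.0202) in the set-adjusted fit. The set-adjusted call was lost without WT replicate 1 (-0.57) or any of the 3 KO libraries of the WT set (-0.60 to -0.55).

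Emilin1 encodes EMILIN-1, an elastin-binding glycoprotein at the interface of elastin and microfibrils (chromosome 5, 30913402 to 30921277, plus strand, 5 exon blocks). WT mice had 78.1, 85.5 and 93.4 CPM and their KO mice 11.1, 3.09 and 3.22 CPM. Ctrl mice had 21.8 and 9.90 CPM against 0.837 and 6.93 CPM in KO, and CreCtrl mice 18.2 and 31.8 CPM against 1.01 and 3.24 CPM in KO. The KO libraries were lower throughout, with the widest spread in the Ctrl set, where the log2 fold change was -4.22 or -1.20 depending on which KO library was kept. Emilin1 fell 15.7-fold against WT, which was the largest change of the 10 genes in that comparison (log2 fold change -3.98, SE 0.48, adjusted p = 0.000373). It fell 11.4-fold against CreCtrl (-3.51, SE 0.55, adjusted p = 0.0103), and its value against Ctrl was -2.02 (SE 0.97, adjusted p = 0.538). The set-adjusted value was -3.27 (SE 0.51, adjusted p = 0.000445).

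Among the fibulins, Fbln2 fell in the same comparisons as Eln, whereas Fbln1 and Efemp1 were called lower against WT and in the set-adjusted fit but not against CreCtrl. Fbln2 encodes fibulin-2, a ligand of fibrillin-1 and tropoelastin (chromosome 6, 91212455 to 91272540, plus strand). It was at 47.5, 68.2 and 54.8 CPM in WT and 9.93, 3.44 and 2.89 CPM in their KO mice. Ctrl mice had 15.7 and 9.61 CPM against 1.87 and 3.91 CPM in KO, and CreCtrl mice 16.9 and 20.9 CPM against 6.70 and 5.94 CPM in KO. The groups did not overlap in any set. The fall was 11.2-fold against WT (log2 fold change -3.48, SE 0.46, adjusted p = 0.000604) and 2.97-fold against CreCtrl (-1.57, SE 0.23, adjusted p = 0.00868), and the value against Ctrl was -2.12 (SE 0.55, adjusted p = 0.177). Fitted with all 14 libraries in 1 model, the CreCtrl call was lost (-1.53, adjusted p = 0.0940).

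Fbln1 encodes fibulin-1, a fibulin of the elastic core and of basement membranes (chromosome 15, 85205949 to 85286535, plus strand). It was at 617, 380 and 389 CPM in WT and 139, 105 and 25.2 CPM in their KO mice. Ctrl mice had 414 and 167 CPM against 41.3 and 11.8 CPM in KO, but CreCtrl mice had 116 and 86.9 CPM against 166 and 99.3 CPM in KO. The CreCtrl groups overlapped, and their controls were already below the lowest Ctrl library. Fbln1 fell 5.52-fold against WT (log2 fold change -2.46, SE 0.53, adjusted p = 0.00677), and it was -3.45 (SE 0.75, adjusted p = 0.134) against Ctrl and 0.38 (SE 0.26, adjusted p = 0.303) against CreCtrl. The set-adjusted value was -1.97 (SE 0.61, adjusted p = 0.0189).

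Fbln5 encodes fibulin-5, which binds tropoelastin and tethers it to cells and to LOXL1 (chromosome 12, 101746565 to 101819055, minus strand). It was at 223, 223 and 201 CPM in WT and 145, 111 and 130 CPM in their KO mice, so the groups were apart, with KO lower. Ctrl mice had 112.1 and 93.5 CPM against 127 and 114 CPM in KO, and CreCtrl mice 122 and 118 CPM against 123 and 140 CPM in KO. There the KO libraries were the higher ones, and neither difference was called. Fbln5 fell 1.79-fold against WT (log2 fold change -0.84, SE 0.14, adjusted p = 0.00173). The log2 fold change was 0.23 (SE 0.22) against Ctrl and 0.14 (SE 0.16) against CreCtrl, and scaling by library size alone turned the latter to -0.08. In the set-adjusted fit it was -0.21 (SE 0.15, adjusted p = 0.281).

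Efemp1 and Efemp2 encode the closely related fibulin-3 and fibulin-4. Efemp2 is required for elastic fibre assembly through its binding of lysyl oxidase, and the human gene EFEMP1 is the one with the macular dystrophy substitution. Their promoters are shown because the pair came apart in KO mice: each line gives the bases before the first RefSeq start in GRCm38.p6, plus strand, 5′ to 3′, without bases in a GENCODE exon, for Efemp1 at chr11:28852955-28853203 and for Efemp2 at chr19:5473696-5473945. Capitals mark matches on either strand to GGGCGG, the core of an SP1 GC box, or to TGANTCA. The latter is a loose pattern for the AP-1 site that allows any base at its centre.
Efemp1: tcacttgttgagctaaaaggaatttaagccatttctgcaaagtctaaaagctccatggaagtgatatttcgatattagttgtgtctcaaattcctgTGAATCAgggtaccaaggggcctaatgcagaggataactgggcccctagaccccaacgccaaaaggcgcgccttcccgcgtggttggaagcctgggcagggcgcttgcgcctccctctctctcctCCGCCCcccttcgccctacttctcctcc
Efemp2: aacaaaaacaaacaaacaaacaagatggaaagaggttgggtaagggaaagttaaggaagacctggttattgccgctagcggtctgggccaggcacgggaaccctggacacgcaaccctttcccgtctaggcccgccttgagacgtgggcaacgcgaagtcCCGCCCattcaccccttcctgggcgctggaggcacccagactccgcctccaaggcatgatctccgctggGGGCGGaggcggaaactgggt
The set of RefSeq promoters used here had no entry for Eln, Lox and Loxl1. It gave promoters for 7 of the 10 genes, with 11 starts in all: Fbn1, Fbln1, Fbln2, Fbln5, Efemp1, Efemp2 and Emilin1. In the 250 bases before these starts, GGGCGG was found in 8 of 11 windows, against 32.7% of the 32851 promoters of the table. These windows belong to 6 of the 7 genes, and windows 2 and 3 of Efemp2 overlap. The 11 windows hold 46.4% to 78.8% G or C, against a median of 52.4% over all promoters. Whether the share with GGGCGG goes with the G or C content was not tested. TATAAA was found in 0 of 11, against 12.4% of all, and GGAATG, the TEAD motif, in 0 of 11, against 12.6%. TGANTCA was found in Efemp1 only, as TGAATCA, against 6.75% of all. CANNTG, the E-box, was found in 6 of 11 windows, against 66.2%, and its form CACGTG in the 2 overlapping windows of Fbln1, against 6.02%. Such matches describe the letters and do not show that a factor binds.

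Efemp1 (chromosome 11, 28853204 to 28926743, plus strand) was at 189, 178 and 92.7 CPM in WT and 54.7, 46.6 and 20.8 CPM in their KO mice. Ctrl mice had 132 and 169 CPM against 19.95 and 22.03 CPM in KO, and CreCtrl mice 60.6 and 43.8 CPM against 45.5 and 30.9 CPM in KO. The KO mice were far lower in the Ctrl set and overlapped the controls in the CreCtrl set, whose controls lay below the WT and Ctrl mice. Efemp1 fell 4.02-fold against WT (log2 fold change -2.01, SE 0.37, adjusted p = 0.00334). It was -2.84 (SE 0.25, adjusted p = 0.106) against Ctrl, -0.45 (SE 0.23, adjusted p = 0.191) against CreCtrl and -1.77 (SE 0.34, adjusted p = 0.00163) in the set-adjusted fit. Without Ctrl replicate 1 the value against Ctrl was -3.004 (edgeR adjusted p = 0.00532), with the lone Ctrl mouse assumed to vary like the KO mice.

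Efemp2 (chromosome 19, 5473954 to 5482517, plus strand) stayed between 78.4 and 123 CPM in all 14 libraries. WT mice had 114.9, 113 and 116 CPM and their KO mice 101, 123 and 93.3 CPM. Ctrl mice had 95.2 and 78.4 CPM against 90.0 and 119 CPM in KO, and CreCtrl mice 94.0 and 90.5 CPM against 99.2 and 109 CPM in KO. The groups overlapped in the WT and Ctrl sets, and the KO mice were above both controls in the CreCtrl set. The log2 fold changes of -0.21 (SE 0.13), 0.27 (SE 0.25) and 0.19 (SE 0.15) against WT, Ctrl and CreCtrl were not called, nor was 0.08 (SE 0.10, adjusted p = 0.580) in the set-adjusted fit. Library size alone turned the values against CreCtrl and in the set-adjusted fit to -0.03 and -0.17.

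Lox encodes lysyl oxidase, the enzyme that starts elastin and collagen crosslinks (chromosome 18, 52516067 to 52529867, minus strand). It was at 114.7, 93.6 and 137 CPM in WT and 16.9, 5.68 and 10.002 CPM in their KO mice. Ctrl mice had 28.6 and 19.2 CPM against 1.74 and 5.98 CPM in KO, and CreCtrl mice 19.8 and 37.5 CPM against 1.74 and 5.37 CPM in KO. The groups were apart in every set. Lox fell 11.3-fold against WT (log2 fold change -3.50, SE 0.37, adjusted p = 2.00e-04) and 7.84-fold against CreCtrl (-2.97, SE 0.55, adjusted p = 0.0170). It was -2.63 (SE 0.64, adjusted p = 0.155) against Ctrl and -3.07 (SE 0.35, adjusted p = 4.35e-05) in the set-adjusted fit.

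Loxl1 encodes a paralogue of lysyl oxidase that maintains elastic fibres in adult tissue (chromosome 9, 58287738 to 58313186, minus strand). It did not follow Lox. WT mice had 445, 417 and 627 CPM and their KO mice 356, 413 and 351 CPM, Ctrl mice 310 and 264 CPM against 281 and 334 CPM in KO, and CreCtrl mice 251 and 236 CPM against 277 and 297 CPM in KO. The KO mice were lower in the WT set, overlapped in the Ctrl set and were higher in the CreCtrl set. The log2 fold changes were -0.51 (SE 0.18, adjusted p = 0.0557), 0.10 (SE 0.24) and 0.25 (SE 0.17) in that order and -0.08 (SE 0.14, adjusted p = 0.676) in the set-adjusted fit. The value against WT was called with library size alone (-0.75, adjusted p = 0.00940) and without WT replicate 2 (-0.62, adjusted p = 0.0422), and library size alone turned the value against Ctrl to -0.02.

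**Figure D2:**
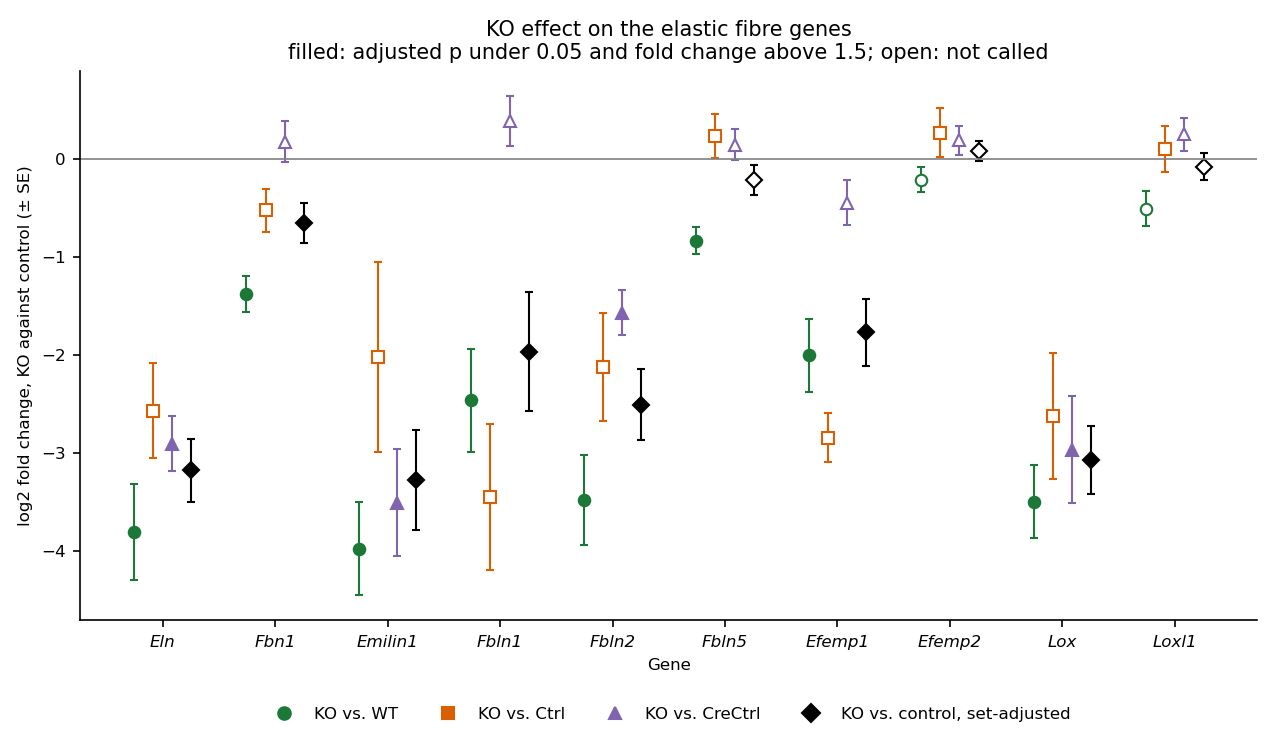
log2 fold change of KO against control with its standard error for the 10 genes in the 3 sets and in the set-adjusted fit, filled where called. Eln, Emilin1, Fbln2 and Lox lie at or below -1.57 in all 4 comparisons, whereas Fbln5, Efemp2 and Loxl1 lie between -0.84 and 0.27.

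Per length, Loxl1 was the highest of the 10 genes in all 6 groups, at 151 ± 34.5 CPM per kb (SD, n = 3) in WT and 113 ± 10.5 CPM per kb in their KO mice. In WT it was followed by Fbln1 at 106 ± 30.8 and Efemp1 at 75.2 ± 25.9 CPM per kb, and the ranges of these neighbours overlapped. Fbn1, Fbln5, Efemp2 and Eln followed at 32.4, 31.2, 30.3 and 28.1 CPM per kb, each overlapping the next, then Lox at 24.1, Emilin1 at 17.3 and Fbln2 at 8.92 CPM per kb. Length here covers every annotated exon of a gene (8.098 kb for Eln), and the order depends on it. Eln, Lox, Emilin1 and Fbln2 had the 4 lowest means in every group. In the KO mice they were at 0.355 to 2.27 CPM per kb on average, and the lowest of the other 6 genes there was Fbln1 at 6.08 CPM per kb in the Ctrl set.

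The summed level of the 10 genes was 542, 453 and 516 CPM per kb in WT and 239, 236 and 185 CPM per kb in their KO mice. It was 338 and 269 CPM per kb in Ctrl against 166 and 184 CPM per kb in KO. It was 209 and 195 CPM per kb in CreCtrl against 209 and 206 CPM per kb in KO, where the groups overlapped almost fully. Loxl1 made up 24.9% to 36.8% of the sum in WT and 45.1% to 57.6% in their KO mice. Its share was 27.8% and 29.8% against 51.3% and 55.2% in the Ctrl set and 36.4% and 36.9% against 40.3% and 43.9% in the CreCtrl set, so it was higher in KO mice in each. Eln made up 3.67% to 8.82% in WT and 0.653% to 1.48% in their KO mice, and at most 2.15% in any other group.

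**Figure D3:**
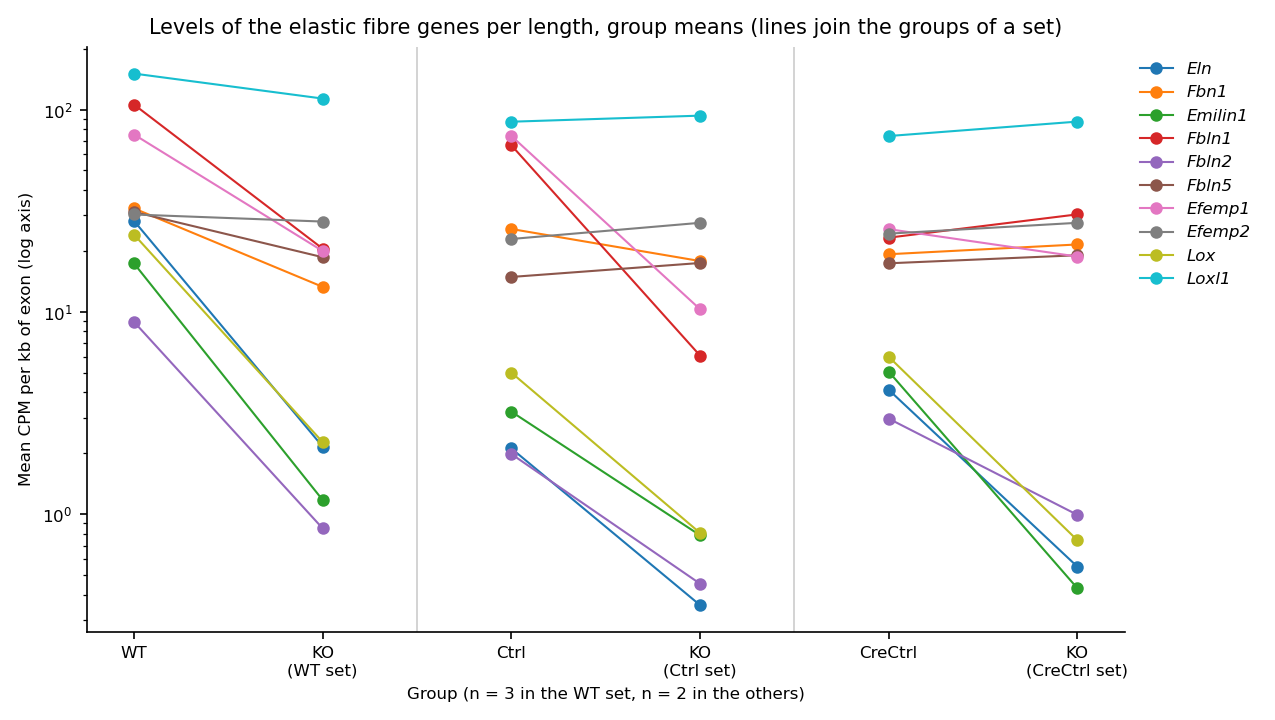
Mean CPM per kb of exon on a log axis for the 10 genes in the 6 groups, with a line joining the control and KO group of each set. Loxl1 is highest throughout, and Eln, Lox, Emilin1 and Fbln2 form the lowest lines in every set.

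Ratios between related genes within single libraries are described for 3 pairs. A permutation test within sets was run on them, but its p-values are not given. The pairs were chosen after their values had been seen. Lox per kb was 0.178, 0.155 and 0.151 of Loxl1 in WT and 0.0327, 0.00949 and 0.0197 in their KO mice. It was 0.0637 and 0.0502 against 0.00427 and 0.0123 in the Ctrl set and 0.0545 and 0.109 against 0.00432 and 0.0125 in the CreCtrl set. All 7 KO libraries were lower than the controls of their set, with a mean log2 difference of -3.16.

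The ratio of Efemp1 to Efemp2 was 3.05, 2.93 and 1.49 in WT and 1.00, 0.705 and 0.415 in their KO mice. It was 2.58 and 4.02 against 0.412 and 0.345 in the Ctrl set and 1.20 and 0.900 against 0.853 and 0.525 in the CreCtrl set. Again all KO libraries were lower than their controls, narrowly so in the CreCtrl set, and the mean log2 difference was -1.85. The ratio of Fbln1 to Fbln2 had a mean log2 difference of 0.49 and differed in sign between sets, with log2 differences of 0.95, -1.39 and 1.92 in the WT, Ctrl and CreCtrl sets.

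**Figure D4:**
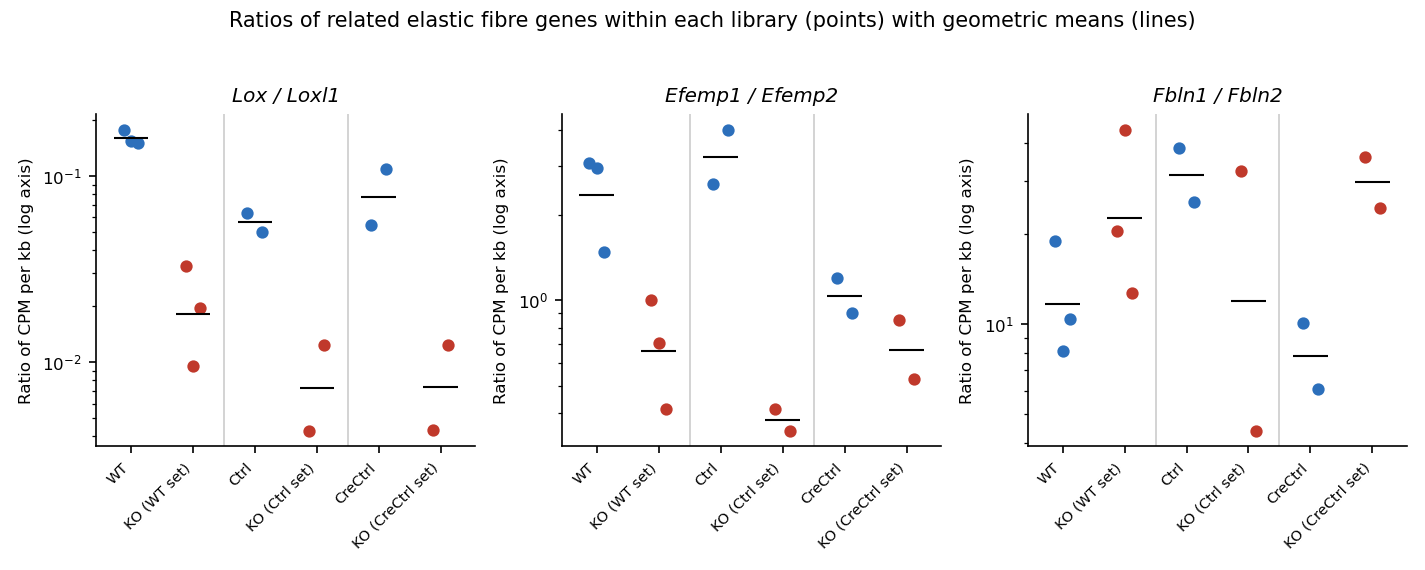
Ratio of CPM per kb on a log axis for Lox to Loxl1, Efemp1 to Efemp2 and Fbln1 to Fbln2 in each library (points), with geometric group means (lines). Every red KO point lies below the blue controls of its set for the first 2 ratios, and the sets disagree for Fbln1 to Fbln2.

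The KO effect was compared between sets by testing the difference itself, at an adjusted p under 0.05. Between the WT and Ctrl sets, Fbln5 differed (-0.93, SE 0.21, adjusted p = 0.0270), as did 5.15% of 17662 genes. Between the WT and CreCtrl sets, Fbn1 differed (-1.45, SE 0.29, adjusted p = 0.0304), as did 1.49% of all genes. In both cases the value was lower in the WT set. Between the Ctrl and CreCtrl sets 0 of 17662 genes differed by edgeR's test. There 3 of the 10 genes had an unadjusted p under 0.05, as did 1545 of all genes, and DESeq2 called 116 genes, among them Efemp1. Fbln1 had the widest difference between those 2 sets at -3.87 (SE 0.99, adjusted p = 0.384). Each of the called differences was lost when any of several libraries was left out: that of Fbln5 without Ctrl replicate 2, either KO library of the Ctrl set, or KO replicate 2 or 3 of the WT set, and that of Fbn1 without any CreCtrl library or any KO library of the WT or CreCtrl set.

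A further 28 genes of elastic fibres and microfibrils were examined in the same fits. Against WT, 19 of 28 fell and 1 rose, where 17.6% of all genes fell, and their median log2 fold change was -2.92, against -0.08 for all genes. Against CreCtrl 16 fell and 1 rose, where 12.2% of all genes fell, with a median of -1.78 against -0.02 for all genes. Against Ctrl 0 of the 26 tested were called, nor was any other gene, with a median of -1.52 against 0.01 for all genes. In the set-adjusted fit 22 fell and 1 rose, where 16.8% of all genes fell, with a median of -2.68 against 0.01 for all genes. The largest set-adjusted fall was that of Ltbp4, a latent TGF-β binding protein that promotes elastic fibre assembly (log2 fold change -3.84, SE 0.38, adjusted p = 1.66e-05). It went from 352 to 397 CPM in WT to 10.7 to 24.3 CPM in their KO mice, and from 62.5 and 94.5 CPM in CreCtrl to 3.31 and 8.51 CPM in theirs. Thsd4, which binds fibrillin-1, was next (-3.79, SE 0.42, adjusted p = 3.93e-05). Fbn2, the fibrillin of developing tissue (-3.28), Mfap5, a microfibril-associated glycoprotein (-2.99), and Ltbp2, a fibrillin-1 ligand (-2.89), fell with them.

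Mmrn2, an endothelial matrix protein of the EMILIN family (-3.13), and Adamtsl5 (-3.20) also fell in the set-adjusted fit. The EMILIN relatives Emilin3 and Mmrn1 and the protease gene Adamts17 were called lower there too. Their levels in KO mice were too low for a fold change to be given. Adamts17 was at 1.96 CPM or more in WT and at 0 to 0.476 CPM in their KO mice. It was at 0.640 and 0.771 CPM in CreCtrl and 0.0807 and 0.203 CPM in their KO mice. That difference was not called by edgeR's test (adjusted p = 0.0960). Emilin3 was at 5.54 to 8.85 CPM in WT and 0 to 2.04 CPM in their KO mice, and at 1.88 and 5.08 CPM in CreCtrl and 0.101 and 0.484 CPM in theirs. Mmrn1 was at 1.98 to 10.1 CPM in WT and 0 to 1.84 CPM in their KO mice, was not called against WT, and had no count in either KO library of the Ctrl set. Loxl4, a lysyl oxidase paralogue, was the only one of the 28 that rose. It was at 9.77 to 11.9 CPM in WT and 66.8 to 82.3 CPM in their KO mice, and at 32.1 and 37.8 CPM in CreCtrl and 62.9 and 79.2 CPM in theirs. Its log2 fold change was 2.70 (SE 0.17) against WT and 1.04 (SE 0.19, adjusted p = 0.0158) against CreCtrl, and 0.62 (SE 0.33, adjusted p = 0.615) against Ctrl. All KO libraries were above their controls in each set. The gap was narrow against Ctrl, with 23.1 and 35.0 CPM in Ctrl and 35.8 and 53.5 CPM in their KO mice. Such a separation upwards held for 18.3% of genes tested against Ctrl and for 34.5% against CreCtrl. The share for the WT set is not given here. Genes called higher made up 14.1% of all genes against WT and 3.46% against CreCtrl, and 1641 of 14925 genes in the set-adjusted fit. In the set-adjusted fit the lysyl oxidase family thus held Lox and Loxl3 (-0.75, adjusted p = 0.00794), which fell, Loxl4, which rose, and Loxl1 and Loxl2, which were not called.

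**Figure D5:**
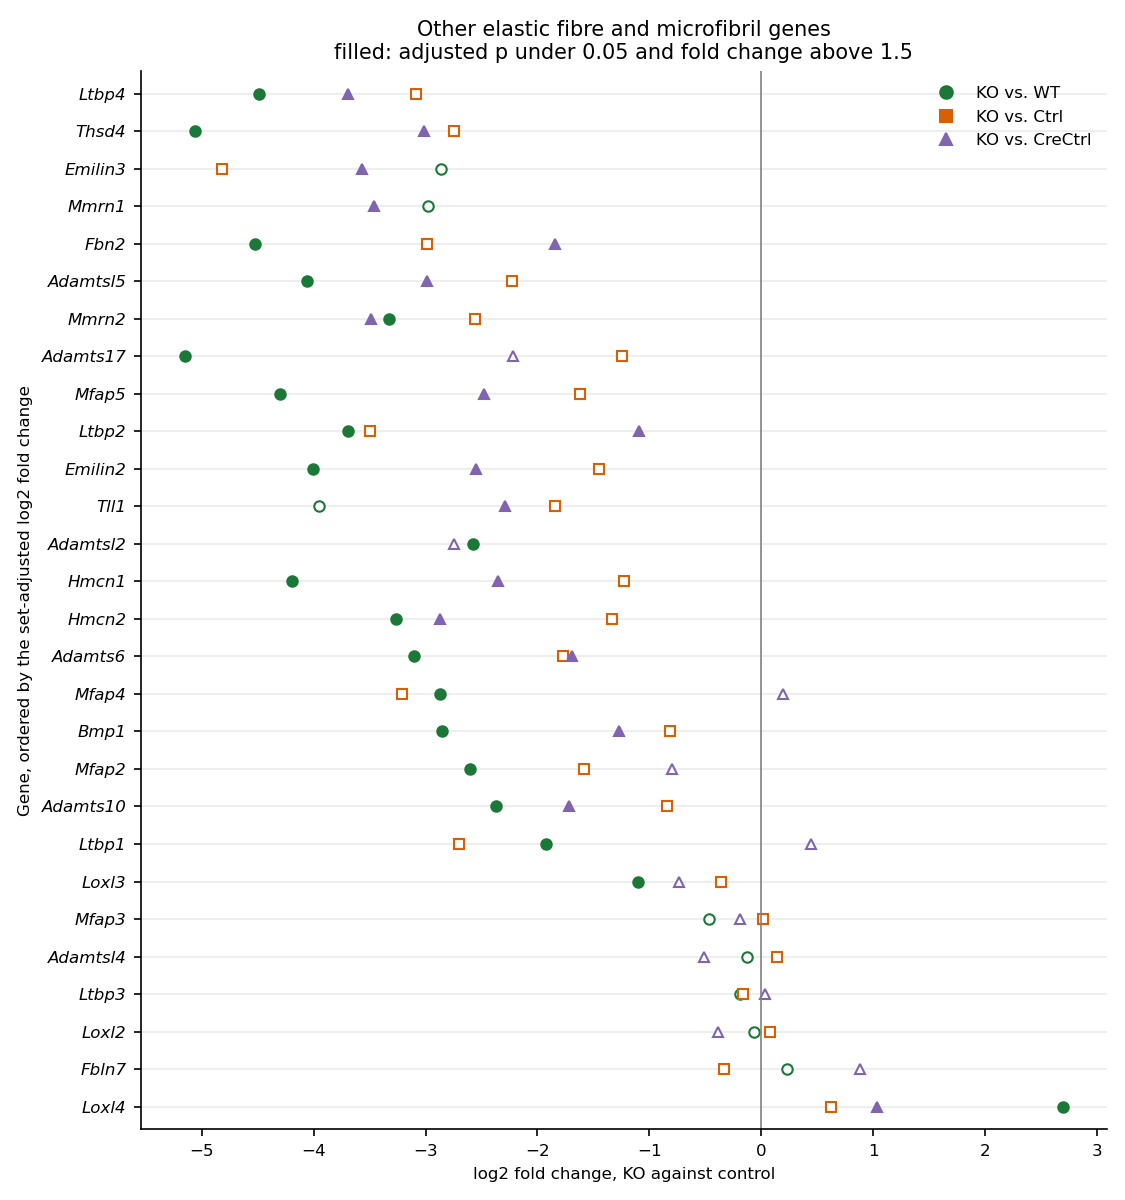
log2 fold change of KO against control in each of the 3 sets for the 28 other elastic fibre and microfibril genes, ordered by the set-adjusted value and filled where called. Most lie left of 0 in all sets, and Loxl4 lies right of 0 in all of them, from 0.62 to 2.70.

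For each of the 10 genes, the gene closest in pattern was taken as the one with the smallest root mean square difference of centred log2 CPM over the 14 libraries. The genes were measured in the same libraries, which differ in depth and in their cell type markers, so the match is a description. The closest to Eln was Cdh23, at a difference of 0.58, the loosest match of the 10. Fbln1 was matched by Mfap4 at 0.35, itself a microfibril gene of the list above, which was at -2.87 against WT, -3.21 against Ctrl and 0.19 against CreCtrl. The nearest to Lox was Rcn3 at 0.28, to Fbln2 Ust at 0.27 and to Emilin1 Klf2 at 0.25, and to Efemp1 Frat2 at 0.31. Fbn1, Fbln5, Efemp2 and Loxl1 were closest to Add3 (0.18), Arl6ip5 (0.16), Cfap20 (0.08) and Erp29 (0.16).

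Exons of 4 of the genes overlap a gene on the other strand, and whether the counting used strand is not given in the sources used here. Gm9913 overlaps 20.1% of the exonic bases of Fbn1 and had 4 to 81 counts per library, against at least 1985 for Fbn1. Mus81 overlaps 4.57% of Efemp2 and had 221 to 637 counts, against at least 1270 for Efemp2. Gm30003 overlaps 3.30% of Eln, with at most 24 counts, and 0.628% of Lox is overlapped by another transcript. The lowest count behind any of the 10 genes was 13, for Emilin1 in KO replicate 1 of the Ctrl set.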

How the data were processed

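The authors made stranded poly(A) libraries, sequenced them in pairs on a NovaSeq and aligned the reads to GRCm38 with STAR 2.5.2, and the deposited table holds raw read counts per Ensembl gene. HTSeq 0.11.2 is named in the submitters' processing notes without a role. The annotation used for counting and its strand setting are not given in the sources used here. GENCODE M21 gave names, positions and exon lengths for 42329 of the 42687 genes, and RefSeq (GRCm38.p6) the promoter sequences.

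From the counts, KO and control libraries of each set were compared with edgeR's quasi-likelihood test (TMM, filterByExpr) with Benjamini-Hochberg adjustment over all genes tested. A fit of all 14 libraries with the set as covariate and tests of the difference between sets were added, the latter called on adjusted p alone. SE is the log2 fold change divided by the square root of F. Fold changes within a set use TMM factors of that set, whereas printed CPM use factors over 14 libraries. Each library is 1 mouse, and the counts of replicates differed beyond sampling noise. The set of a KO library was read from its title.

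The 10 genes, the 28 further genes and the marker lists were chosen with earlier results of these data known. Named were all 10 genes, Clic4, up to 10 called genes of the 28 with the largest set-adjusted change, and 1 gene of most similar pattern per member (log2 CPM with a prior count of 2). Loxl2, Loxl3, Loxl4, Mfap4 and Myh11 and the 3 ratios were chosen after their values were seen. Alternatives were DESeq2, RLE or library size alone, no filter, 1 fit over all libraries, the replicate number as a block, and each library left out. The edgeR and DESeq2 steps were tested on simulated data. The fits were run in edgeR 4.0.16, with DESeq2 1.42.0 as the alternative, under R 4.3.3. Summaries, ratios and figures were made in Python 3.11.15 with pandas 2.3.3.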

Additional observations from a re-analysis of the deposited data

Results flagged for a closer look

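Eln in KO replicate 1 of the WT set, at 28.6 CPM, stood apart from the other KO libraries, which ran from 2.66 to 12.5 CPM. The 7 KO libraries come from 3 sets whose levels differ: the other 2 KO libraries of the WT set were at 12.5 and 11.3 CPM, and those of the Ctrl and CreCtrl sets at 2.66 to 5.57 CPM. The same library was also the highest of the 7 for Lox (16.9 CPM), Emilin1 (11.1 CPM) and Fbln2 (9.93 CPM), without standing apart by the same measure. Each of the 10 genes was checked in this way, and chance marks about 1 in 20.

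The effect of KO on Fbln5 differed between the WT and Ctrl sets by -0.93 on the log2 scale, since Fbln5 was lower in KO mice of the WT set and not in those of the Ctrl set. The effect on Fbn1 differed between the WT and CreCtrl sets by -1.45. The sets also differ in the genotype of their controls, and set and genotype cannot be told apart.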

How the results depend on the processing

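The direction of the called log2 fold changes of the 10 genes did not reverse under any alternative run. Leaving out single libraries kept 679 of 700 values on their side of the threshold, with 5 gained and 16 lost, and the other alternatives kept 343 of 380, with 34 gained and 3 lost. Against Ctrl, where 0 genes were called, DESeq2 called 1168 genes, 5 of the 10 and 9 of the 28, 1 fit over all libraries 647, 5 and 7, and no filter on low counts 1658, 6 and 12. Against CreCtrl, 1 fit over all libraries called 703 genes and 9 of the 28, and no filter called 4287 genes. Deviations of KO and control libraries with the same replicate number had correlations between -0.03 and 0.19. With 2 mice a group both replicates give the same value, so these values cannot show whether the mice were paired. With the replicate block, KO vs. Ctrl called 113 genes, 2 of the 10 and 2 of the 28, and KO vs. CreCtrl 3762 genes. The WT-Ctrl, WT-CreCtrl and Ctrl-CreCtrl differences gave 445, 34 and 22 genes, of the 10 genes 0 (WT-Ctrl) and 1 (Ctrl-CreCtrl). Eln against WT was -3.77 with the block.

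For differences between sets, DESeq2 called 1631 (WT-Ctrl), 899 (WT-CreCtrl) and 116 (Ctrl-CreCtrl) genes, of the 10 genes 2, 2 and 1, and no filter called 2262, 1102 and 883, of the 10 genes 5, 4 and 2. For WT-Ctrl, RLE called 596 and library size alone 548 genes, and for WT-CreCtrl RLE called 2 of the 10. With each library left out in turn, genes called ranged from 4230 to 4640 (WT), 0 to 512 (Ctrl), 1147 to 4819 (CreCtrl), 3587 to 4649 (set-adjusted), 100 to 1459 (WT-Ctrl), 0 to 432 (WT-CreCtrl) and 0 to 189 (Ctrl-CreCtrl). Of the 10 genes, 8 to 9, 0 to 1, 4 to 4, 6 to 7, 0 to 2, 0 to 2 and 0 to 0 were called in the same order, and of the 28 genes 17 to 21, 0 to 1, 11 to 21 and 22 to 23 in the first 4. Where 1 mouse was left in a group, it was assumed to vary like the other groups of the fit. The 512 came without Ctrl replicate 1, the 4819 without CreCtrl replicate 1, and the 1147 without CreCtrl replicate 2. The cause of these changes was not tested. With 2 mice a group, 0 calls against Ctrl do not show that these genes are alike there. The lowest values also rest on few counts: 13 for Emilin1, 27 for Lox and 29 for Fbln2 in KO replicate 1 of the Ctrl set. The effect of depth on them was not tested.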

Other observations

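The levels of the controls differed between sets, with no test made because genotype and set go together. Eln was at 135 to 369 CPM in WT, 30.3 and 36.4 CPM in CreCtrl and 11.6 and 22.6 CPM in Ctrl, and the KO mice of the WT set, at 11.3 to 28.6 CPM, overlapped the Ctrl mice. Efemp1 had another order, with Ctrl mice at 132 and 169 CPM within the range of WT at 92.7 to 189 CPM and CreCtrl mice lower at 43.8 and 60.6 CPM.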
